A study of Bos taurus with 18 samples.

Results

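Most of the 84 genes here encode nuclear subunits of the mitochondrial respiratory chain and of ATP synthase in the rumen papillae of Holstein cows. Among the others are ATP5IF1, an inhibitor of ATP synthase, and CHCHD10, a protein of the mitochondrial intermembrane space. All 84 were taken from the deposited count table by gene symbol, out of 27270 genes in all. The rule took NDUFA, NDUFB, NDUFC, NDUFS and NDUFV symbols followed by a number, the 4 SDH subunits, every UQCR symbol, COX4 to COX8 symbols, every ATP5 symbol, and CHCHD10. By name 38 belong to complex I, 4 to complex II, 8 to complex III, 15 to complex IV and 18 to complex V, and CHCHD10 stands alone. All 84 passed the filter on low counts, as did 22202 genes in total.

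The respiratory chain passes electrons from NADH and succinate to oxygen through complexes I to IV, and ATP synthase, complex V, uses the proton gradient that results. Most subunits are encoded in the nucleus and the catalytic core of several complexes in the mitochondrial genome, so that the complexes are built from the products of both. The rumen epithelium absorbs the short-chain fatty acids of fermentation and oxidizes part of its butyrate, which feeds the citric acid cycle and this chain.

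Papillae came from 9 rumen-cannulated, non-lactating cows. PHY is a supplement that the labels do not spell out. The 4 groups were grain_PHY (PHY cows on high grain with 65% concentrate, n = 4), grain_control (control cows on the same grain diet, n = 5), forage_PHY (PHY cows on 100% forage, n = 4) and forage_control (control cows on 100% forage, n = 5). Both diets were fed to the same cows, yet the labels link no library to a cow, and they do not say whether PHY was already given at the forage sampling. The ages of the cows are not in the sources used here.

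Grain libraries were shallower than forage libraries, with 3953060 to 23949058 reads on grain and 15808999 to 34471682 on forage. Reads on 144 genes of olfactory receptors, which few tissues other than the nose express, ran from 32.89 to 345.3 CPM of total reads in grain libraries and from 16.32 to 64.96 in forage libraries. The library grain_PHY 1 stood apart on both measures, with the fewest reads and the highest olfactory receptor value. Levels of single genes are in CPM (counts per 1000000 reads) after TMM scaling and are not per length, so they compare libraries and not genes with each other. The stratified epithelium markers KRT5 and KRT14, keratins of the basal layer, averaged 2940 and 2470 CPM on grain and 4040 and 3390 CPM on forage. The labelled tissue thus showed these basal markers. KRT4, a keratin of non-cornifying epithelia, was near 0 (2.58 CPM on grain and 1.11 CPM on forage). KRT10, another keratin of the same marker list, was also near 0 (3.36 CPM on grain and 3.59 CPM on forage).

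Transcripts of the respiratory chain were lower on grain after TMM scaling, with factors of 0.816 to 2.35 on grain and 0.709 to 1.06 on forage. Summed over the 84 genes they stood at 4348 ± 1510 CPM on grain and 6980 ± 1750 CPM on forage (SD, n = 9 each). On grain the 4 PHY libraries held 2251, 3975, 4613 and 5099 CPM, and the 5 control libraries 2845, 4900, 4142, 3783 and 7524 CPM. On forage the 4 PHY libraries held 8233, 7639, 7699 and 6187 CPM, and the 5 control libraries 6375, 4601, 4347, 8108 and 9628 CPM. All grain_PHY libraries lay below all forage_PHY libraries, whereas the control groups overlapped. Here grain_control 5 was above 3 of the forage_control libraries and forage_control 3 below 2 of the grain_control libraries. Without scaling, members took 0.496 ± 0.115% of total reads on grain and 0.601 ± 0.187% on forage (SD, n = 9 each). This share was 0.524 ± 0.147% in grain_control and 0.553 ± 0.216% in forage_control. It ran from 0.404 to 0.526% in grain_PHY and from 0.453 to 0.811% in forage_PHY, so the PHY groups overlapped too.

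The shift in single genes was one-sided. Averaged over both arms, edgeR's quasi-likelihood test called 63 of the 84 lower on grain, 1 higher (COX4I2) and 20 in neither direction, at a Benjamini-Hochberg adjusted p under 0.05 over all tested genes. The median log2 fold change was −0.65, a level 36.3% lower on grain, and 80 of the 84 estimates were negative. Of all tested genes 13.8% were called lower and 18.1% higher, with a median log2 fold change of 0.20. The call depended on level, however. Of the 3965 genes at or above the members' lower quartile of mean level, 4.57 on the log2 CPM scale, 47.4% were called lower and 0.883% higher, with a median of −0.47 when members are left out. Of the 63 members in that range 51 were called lower, and their median was −0.68. The plot of change against mean level shows the members in the lower part of a broad downward band of well-expressed genes. These diet calls depended on single libraries, on a covariate and on the scaling. Without grain_PHY 1 edgeR called 0 members, and of the 22479 tested genes 0 lower and 1 higher. Without adjustment 63 members were lower and 1 higher at a p under 0.05, and the members' smallest adjusted p was 0.062. Still 79 member estimates stayed negative, with a median of −0.50. The count called lower was 21 without forage_PHY 1, 34 without forage_PHY 2, 37 without forage_control 5, and 38 without grain_control 1 or without grain_control 4, with 3.88% to 7.07% of all tested genes called lower in these 5 runs. With the olfactory receptor level as a covariate 0 members and 0% of all tested genes were called. Of the 84 member estimates 44 were then negative, and their median was −0.01. Scaled to total reads without TMM, 5 members were called lower and 2 higher, 69 estimates were negative and the median was −0.25, against 0.75 for all tested genes.

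**Figure D1:**
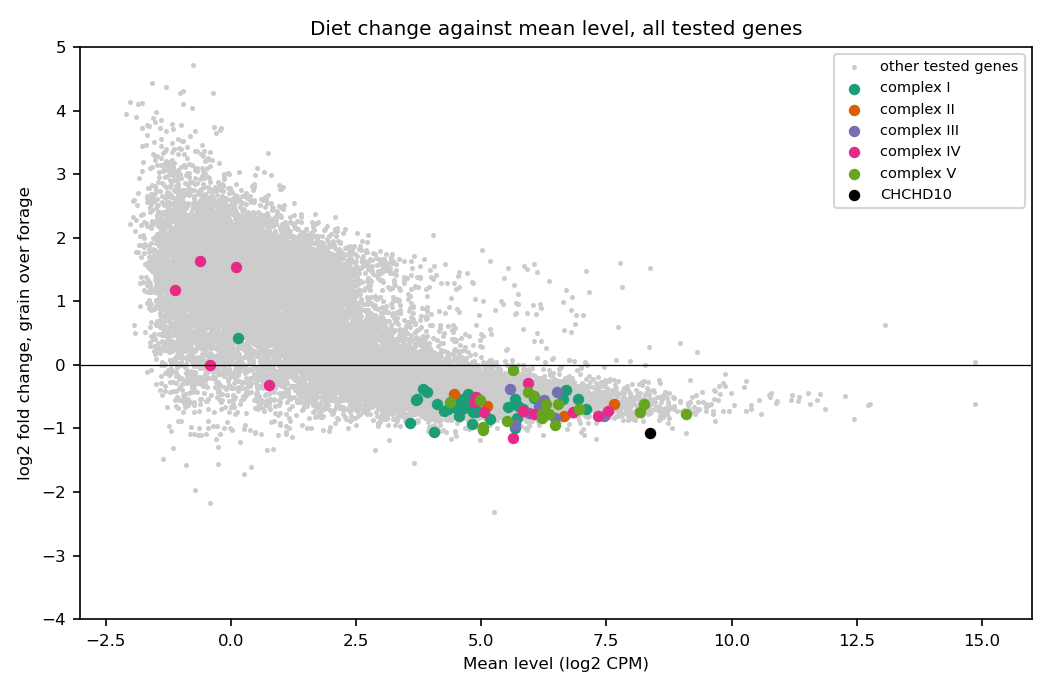
Log2 fold change of grain over forage (vertical axis) against mean level in log2 CPM (horizontal axis) for every tested gene in grey, with the 84 members coloured by complex. Most well-expressed genes lie below 0, and most members lie in or under that band, while 3 of the 4 members with positive estimates are weakly expressed complex IV genes.

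The complexes had similar medians. The median log2 fold change was −0.64 for complex I, −0.63 for complex II, −0.71 for complex III, −0.58 for complex IV and −0.72 for complex V. As shares of the summed member CPM, complex V made up 36.8 ± 1.0% on grain and 36.9 ± 0.95% on forage, and complex IV 13.8 ± 0.62% on grain and 14.1 ± 0.51% on forage. Complex I held 26.2 ± 1.5% on grain and 24.7 ± 0.13% on forage, and CHCHD10 alone 4.81 ± 0.99% on grain and 6.36 ± 0.78% on forage (SD, n = 9 each). The complex I share was highest in grain_PHY 1 (29.4%) and grain_control 1 (27.4%), the libraries of fewest reads. In the other grain libraries it was 24.6% to 26.7%. These shares are a description, without a test.

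**Figure D2:**
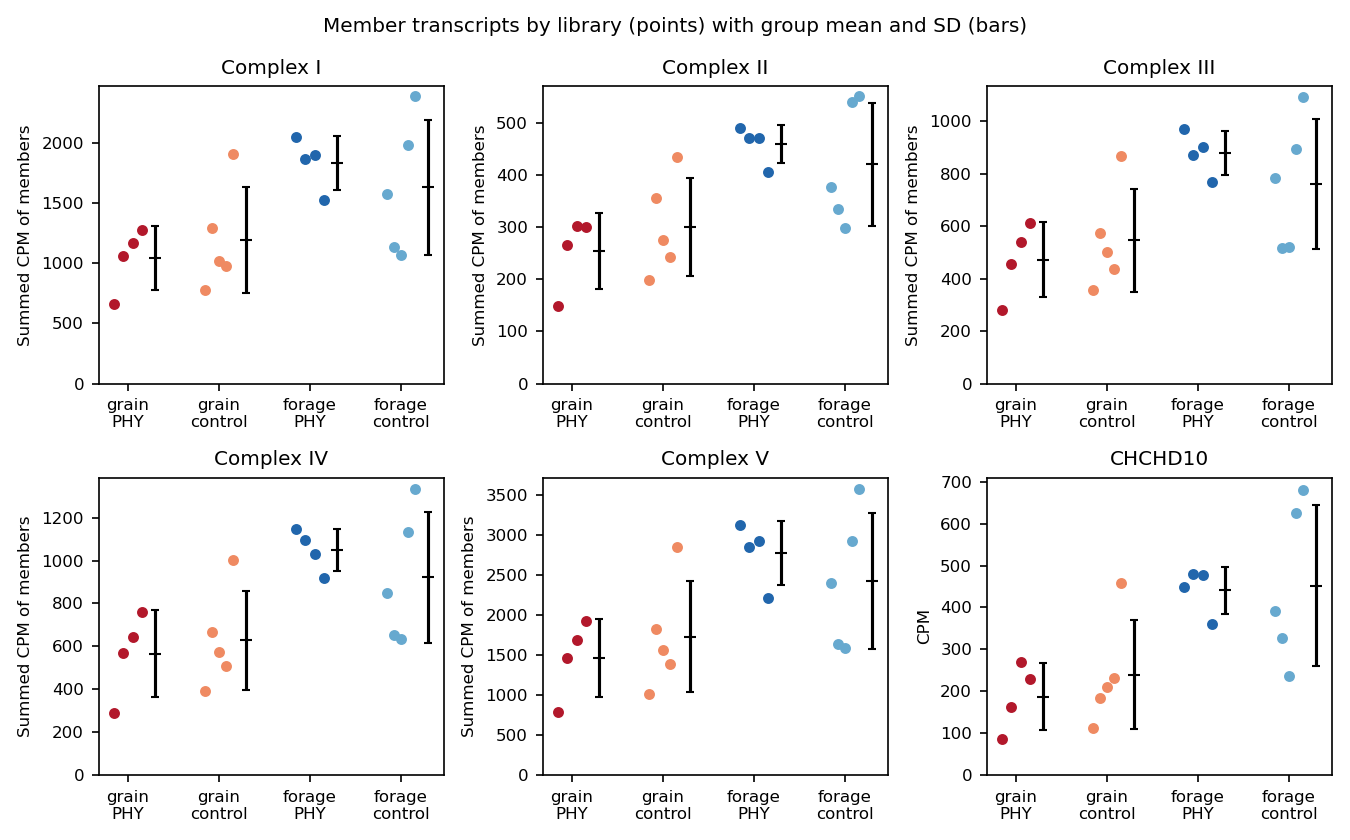
Summed CPM of the members of each complex and CPM of CHCHD10 in every library, with points for libraries and bars for the group mean and SD (n = 4 for PHY and n = 5 for control). In each panel the grain_PHY libraries lie below the forage_PHY libraries and the control groups overlap.

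Complex I, NADH dehydrogenase, takes electrons from NADH and passes them to ubiquinone. Of its 38 genes 30 fell on grain and 8 were not called. The largest fall was that of NDUFA3, an accessory subunit. It had 3.79, 10.5, 10.5 and 12 CPM in grain_PHY and 7.86, 10.4, 12.2, 10.1 and 20.7 CPM in grain_control, against 23.9, 24.1, 23.7 and 24.1 CPM in forage_PHY and 21.6, 14.1, 10.8, 24.0 and 31.5 CPM in forage_control. The PHY groups were far apart and the forage_PHY libraries nearly equal, while the control groups overlapped. Its log2 fold change over both arms was −1.05 ± 0.22 (SE, edgeR adjusted p = 0.020). NDUFB10, an accessory subunit of the membrane arm, fell by 0.99 ± 0.25 on the log2 scale (adjusted p = 0.020, edgeR).

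Core subunits of complex I fell as well. NDUFS7, which carries the last iron-sulfur cluster before ubiquinone, had 9.64, 14.9, 22.1 and 21.7 CPM in grain_PHY and 14.3, 20.6, 19.4, 20.5 and 32.8 CPM in grain_control. On forage it had 43.8, 38.2, 37.4 and 28 CPM in forage_PHY and 34.5, 26.2, 20.3, 46.2 and 54.6 CPM in forage_control. Again the PHY groups did not overlap and the control groups did. The fall of NDUFS7 was 0.93 ± 0.20 (log2, edgeR adjusted p = 0.020). NDUFS1, the largest subunit, fell by 0.53 ± 0.20 (adjusted p = 0.048, edgeR), and was called in 5 of 18 runs with 1 library left out. The accessory subunit NDUFB11 fell by 0.54 ± 0.18 (adjusted p = 0.033). Among the 8 not called, NDUFC2 was at −0.46 ± 0.19 (adjusted p = 0.057), NDUFB9 at −0.40 ± 0.20 and NDUFA4 at −0.38 ± 0.20. NDUFA4 keeps its complex I symbol, although its protein is now placed in cytochrome c oxidase.

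Complex II, succinate dehydrogenase, links the citric acid cycle to the chain and has all its subunits in the nuclear genome. All 4 genes fell, although SDHC was at 0.02 when scaled to total reads. SDHB, the iron-sulfur subunit, had 29.7, 71.6, 87.1 and 73.9 CPM in grain_PHY and 44.6, 87.3, 75.9, 64.2 and 128 CPM in grain_control. On forage it had 139, 144, 126 and 114 CPM in forage_PHY and 109, 103, 77.0, 167 and 165 CPM in forage_control. All grain_PHY values were under all forage_PHY values, and grain_control overlapped forage_control. SDHB fell by 0.81 ± 0.22 on the log2 scale (edgeR adjusted p = 0.022). The flavoprotein subunit SDHA fell by 0.62 ± 0.19 (adjusted p = 0.025), and the membrane anchors SDHD and SDHC by 0.65 ± 0.22 and 0.46 ± 0.17 (adjusted p = 0.036 and 0.046). With 1 library left out in turn, SDHD was called in 8 of 18 runs and SDHC in 4.

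Complex III, the cytochrome bc1 complex, moves electrons from ubiquinol to cytochrome c. Of its 8 genes 6 fell. UQCR10, a small accessory subunit, had 21.2, 19.7, 43.2 and 43.0 CPM in grain_PHY and 20.6, 36.3, 39.6, 31.4 and 64.4 CPM in grain_control. On forage it had 84.0, 74.9, 84.6 and 60 CPM in forage_PHY and 52.5, 37.5, 38.2, 73.7 and 97.4 CPM in forage_control. No grain_PHY library reached the lowest forage_PHY library, and the control groups overlapped. Its fall was 0.94 ± 0.23 (log2, edgeR adjusted p = 0.020). The core protein UQCRC1 fell by 0.81 ± 0.21 (adjusted p = 0.022), UQCRB, which lies near the ubiquinone site, by 0.83 ± 0.27 (adjusted p = 0.029), and the Rieske iron-sulfur protein UQCRFS1 by 0.55 ± 0.19 (adjusted p = 0.034). The other core protein UQCRC2 and the hinge protein UQCRH were not called, at −0.43 ± 0.19 and −0.38 ± 0.17 (adjusted p = 0.079 and 0.080).

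Complex IV, cytochrome c oxidase, reduces oxygen to water. Of its 15 nuclear genes 8 fell, 1 rose and 6 were not called, the widest spread of any complex. COX8B, a form of subunit 8 that is known from muscle and brown fat in other mammals, had 10.5, 18.7, 31.3 and 32.1 CPM in grain_PHY and 20.9, 29.5, 45.8, 26.1 and 69.3 CPM in grain_control. On forage it had 63.1, 69.3, 55.8 and 49.6 CPM in forage_PHY and 49.2, 53.3, 42.8, 114 and 108 CPM in forage_control. The PHY groups did not overlap, and 3 of the 5 grain_control libraries were below every forage_control library. Its fall, 1.15 ± 0.26 on the log2 scale (edgeR adjusted p = 0.020), was the largest of the 84.

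COX4I1, COX5B, COX5A, COX8A, COX6A1 and COX7B, subunits that most tissues express, fell, whereas COX7A2 and COX6B1 were not called. COX4I1, the common form of subunit 4, had 54.2, 135, 165 and 191 CPM in grain_PHY and 80.0, 144, 140, 126 and 225 CPM in grain_control, against 254, 252, 261 and 214 CPM in forage_PHY and 213, 162, 159, 269 and 292 CPM in forage_control. The PHY groups did not overlap and the control groups did. Its fall was 0.73 ± 0.23 (log2, adjusted p = 0.027, edgeR). COX5B (−0.80 ± 0.24), COX5A (−0.78 ± 0.21), COX8A (−0.75 ± 0.21), COX6A1 (−0.75 ± 0.23) and COX7B (−0.73 ± 0.22) were also called lower. COX7A2 was at −0.51 ± 0.21 (adjusted p = 0.061), COX6B1 at −0.28 ± 0.17 (adjusted p = 0.18) and COX7A1, a form known from muscle, at −0.31 ± 0.36.

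**Figure D3:**
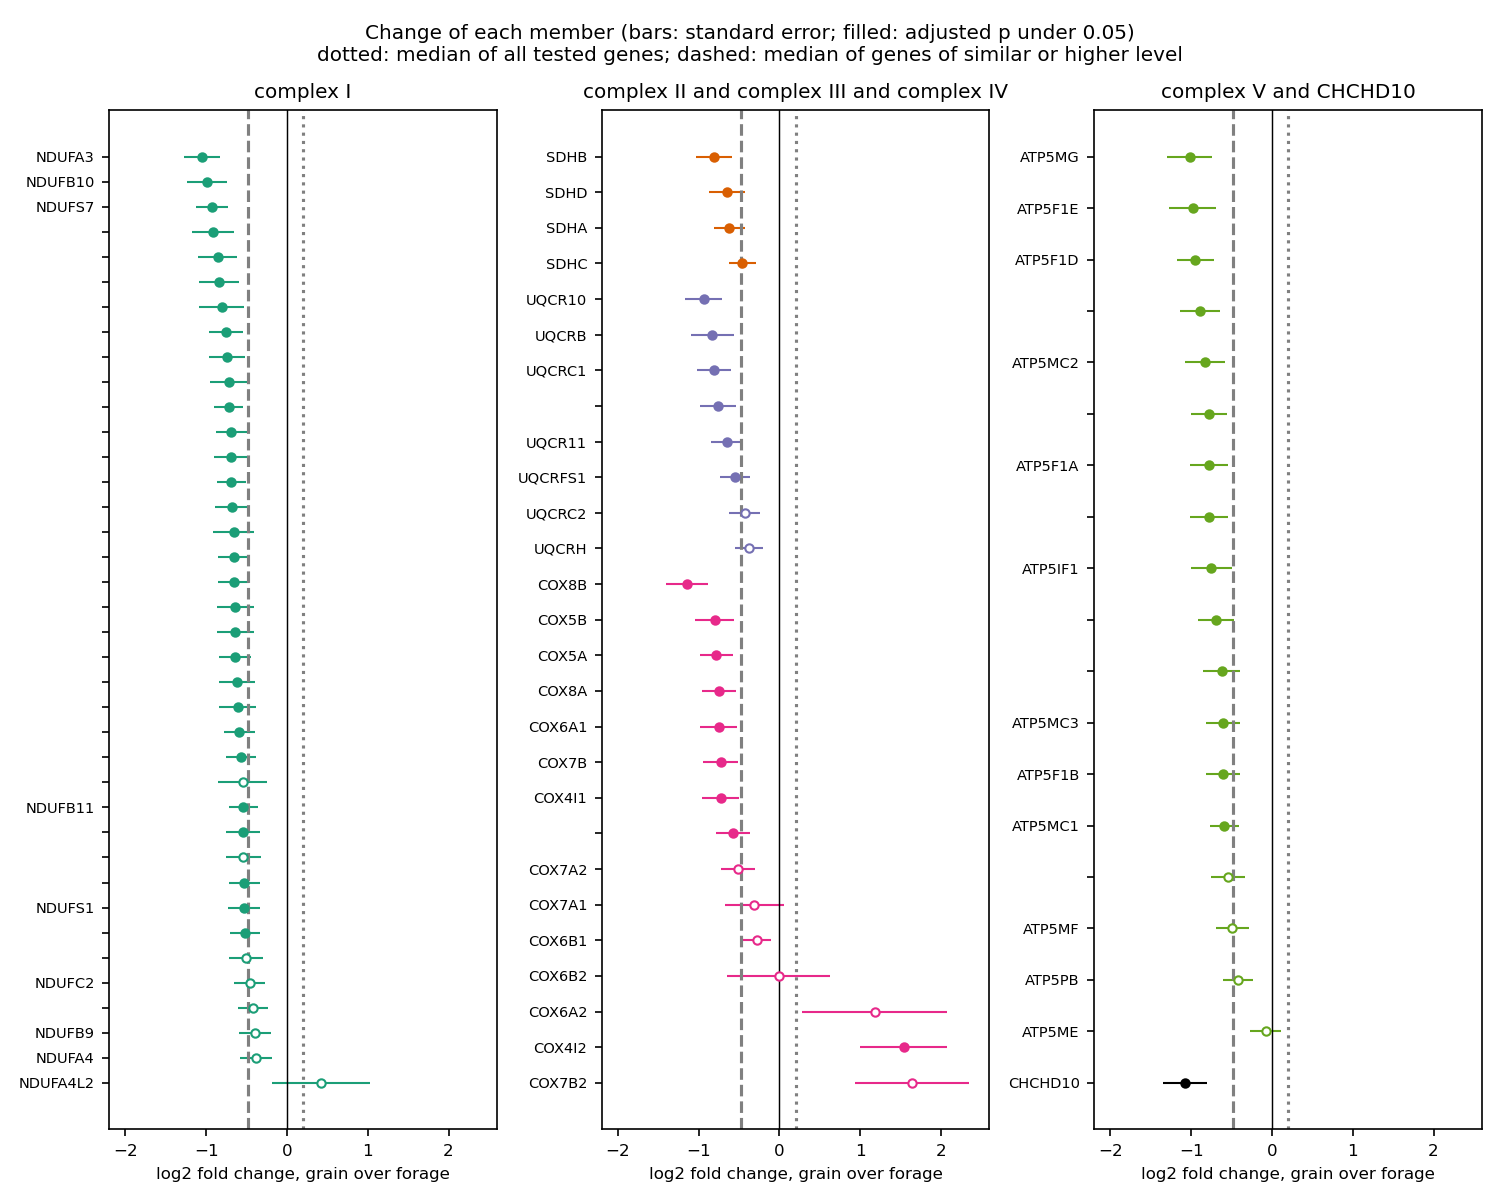
Log2 fold change of grain over forage for each of the 84 members, with standard error bars, grouped by complex and sorted by size, with names beside the genes that the text describes. Filled points passed an edgeR adjusted p of 0.05, the dotted line is the median of all tested genes (0.20) and the dashed line that of genes at or above the members' lower quartile of level (−0.48); the 63 filled points on the left are the genes called lower and COX4I2 is the filled point on the right.

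ATP synthase makes ATP from the proton gradient. Of the 18 genes assigned to it by name 14 fell and 4 were not called. The head subunit alpha, ATP5F1A, had 188, 352, 440 and 423 CPM in grain_PHY and 244, 492, 410, 362 and 757 CPM in grain_control. On forage it had 838, 749, 787 and 543 CPM in forage_PHY and 652, 447, 391, 806 and 913 CPM in forage_control. Every grain_PHY library was below every forage_PHY library, and the control groups overlapped. ATP5F1A fell by 0.78 ± 0.24 on the log2 scale (edgeR adjusted p = 0.026) and the catalytic subunit beta, ATP5F1B, by 0.61 ± 0.21 (adjusted p = 0.036). The central stalk subunits ATP5F1D and ATP5F1E fell by 0.95 ± 0.23 and 0.98 ± 0.29 (adjusted p = 0.020 and 0.024).

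Of the membrane subunits ATP5MG and the genes of the rotor ring fell, as did the inhibitor ATP5IF1, whereas ATP5MF, ATP5ME and the stalk subunit ATP5PB were not called. ATP5MG, a small membrane subunit, had the largest fall of complex V, 1.02 ± 0.28 (log2, edgeR adjusted p = 0.022). ATP5IF1, which blocks ATP hydrolysis by the enzyme, fell by 0.75 ± 0.25 (adjusted p = 0.033). The genes ATP5MC1, ATP5MC2 and ATP5MC3, which encode the same subunit c of the rotor ring, fell by 0.59 ± 0.18, 0.83 ± 0.25 and 0.61 ± 0.21 (adjusted p = 0.026, 0.024 and 0.033). ATP5MF (−0.49 ± 0.20), ATP5PB (−0.42 ± 0.19) and ATP5ME (−0.08 ± 0.19, adjusted p = 0.73) were not called. ATP5ME was the member with the smallest estimate outside complex IV, at 48.1 ± 15.7 CPM on grain and 50.5 ± 9.47 CPM on forage (SD, n = 9 each).

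CHCHD10 encodes a protein of the mitochondrial intermembrane space. It had 86.7, 162, 270 and 229 CPM in grain_PHY and 113, 184, 211, 231 and 459 CPM in grain_control. On forage it had 450, 479, 476 and 360 CPM in forage_PHY and 391, 327, 237, 625 and 681 CPM in forage_control. Of the 9 grain libraries 7 were below every forage library, and the remaining 2 overlapped. Its fall was 1.08 ± 0.27 (log2, edgeR adjusted p = 0.020). The fall was called also when libraries were scaled to total reads without TMM, at 0.69 ± 0.23 (adjusted p = 0.025), as were those of COX8B (0.78 ± 0.22), NDUFA3 (0.67 ± 0.20), NDUFB10 (0.61 ± 0.22) and NDUFS7 (0.52 ± 0.20). No other member was called lower under that scaling, and COX4I2 and COX7B2 were called higher. Of all tested genes it called 0.36% lower and 36.4% higher, so the share of members called higher lay below that of all genes.

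Some subunits have an alternative form that other tissues use, and in 9 such pairs the ratio of raw reads within a library was compared, which needs no scaling between libraries. The ratio of COX4I2, known from lung and from response to low oxygen, to COX4I1 was higher on grain. It was −6.71 ± 1.44 on grain and −8.96 ± 1.23 on forage on the log2 scale (SD, n = 9 each), a difference of 2.26 (two-sided exact permutation p = 0.00321, adjusted over the 9 pairs p = 0.018, smallest possible p 4.11e-05). COX7B2 against COX7B, where COX7B2 is known from testis, stood at −5.80 ± 1.41 on grain and −8.57 ± 2.21 on forage, a difference of 2.78 (two-sided exact permutation p = 0.00399, adjusted p = 0.018).

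Both ratios were called over the 2 arms together and in neither arm alone. In control cows the differences were 1.77 and 1.92 (exact permutation, adjusted p = 0.536 for both). In PHY cows they were 2.86 and 3.85 (exact permutation, adjusted p = 0.129 for both, smallest possible unadjusted p 0.0286). Both ratios rest on few reads of the alternative gene. COX4I2 had 28, 3, 21 and 17 reads in grain_PHY and 17, 29, 17, 26 and 13 in grain_control, against 9, 12, 7 and 3 in forage_PHY and 3, 15, 29, 6 and 15 in forage_control. The reads on COX4I2 lay between 3 and 29 under both diets, whereas those on COX4I1 were 500 to 4810 on grain and 2378 to 9034 on forage. COX7B2 had 19, 5, 28 and 7 reads in grain_PHY and 8, 14, 4, 11 and 6 in grain_control, against 0, 8, 6 and 3 in forage_PHY and 10, 4, 11, 1 and 1 in forage_control. COX4I2 was called higher by edgeR (1.54 ± 0.54, adjusted p = 0.036) and COX7B2 was not (1.64 ± 0.71, adjusted p = 0.071). With 1 library left out in turn, COX4I2 was called in 8 of 18 runs. Without the 3 libraries of fewest reads, all on grain, the differences in ratio were 1.47 and 2.11, neither called (exact permutation, adjusted p = 0.208 for both). Depth and olfactory receptor reads moved with both ratios, and their part in them was not tested.

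**Figure D4:**
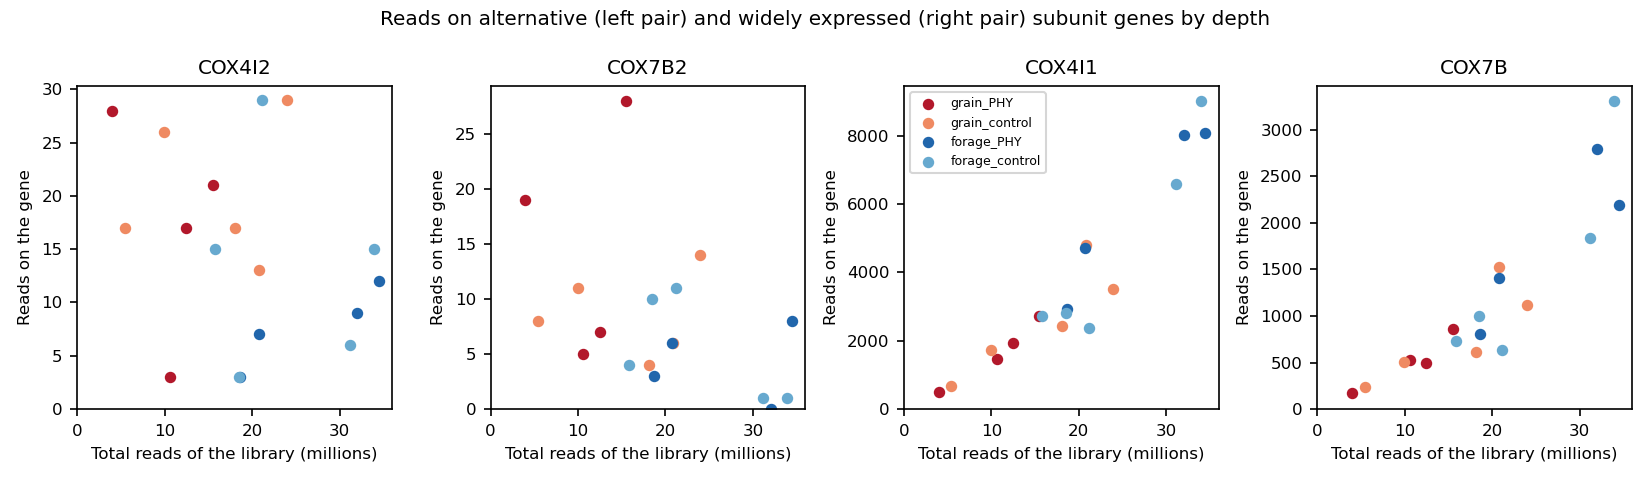
Reads on COX4I2, COX7B2, COX4I1 and COX7B (vertical axes) against total reads of the library (horizontal axes), coloured by group. Reads on the widely expressed genes COX4I1 and COX7B climb with depth, whereas those on COX4I2 stay between 3 and 29 and those on COX7B2 between 0 and 28.

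The other 7 pairs were not called. COX8B made up 37.7% to 67.5% of the reads on COX8B and COX8A on grain and 52.6% to 74.0% on forage, and the difference in log2 ratio was −0.40 (two-sided exact permutation p = 0.0988, adjusted p = 0.178). ATP5MC1 against ATP5MC2 differed by 0.33 (exact permutation p = 0.0638, adjusted p = 0.178) and ATP5MC1 against ATP5MC3 by 0.02 (exact permutation p = 0.797). COX6A2, a muscle form, against COX6A1 differed by 1.94 (exact permutation p = 0.0946), and the edgeR estimate for COX6A2 was 1.18 ± 0.90. NDUFA4L2 against NDUFA4 differed by 0.72, COX6B2 against COX6B1 by 0.50 and COX7A1 against COX7A2 by 0.23, with exact permutation p of 0.346, 0.49 and 0.459. In edgeR NDUFA4L2 was at 0.42 ± 0.61 and COX6B2 at −0.01 ± 0.64.

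Markers of some other cell types were called between the diets in the reported fit, and those of others were mostly not called. Beside them, 13.8% of all tested genes were called lower and 18.1% higher. With the olfactory receptor covariate 0 tested genes were called in either direction. Without grain_PHY 1, 0 of 22479 tested genes were called lower and 1 higher. The 9 measured striated muscle genes summed to 18.9 to 96.6 CPM on grain and 7.28 to 38.4 CPM on forage, and 8 of them were called higher, with ACTA1 and MB averaging 1.67 and 1.82 CPM on grain and 0.361 and 0.584 CPM on forage. The 9 stratified epithelium markers summed to 2800 to 11500 CPM on grain and 6060 to 13000 CPM on forage, with TP63, CDH1 and EPCAM called lower. The 6 red blood cell markers summed to 4.32 to 18.9 CPM on grain and 0.777 to 6.87 CPM on forage, with 3 of the 5 tested called higher. The 10 leukocyte markers summed to 55.9 to 79.5 CPM on grain and 45.6 to 73.4 CPM on forage, with CD8A, MS4A1 and CD163 called higher. CD8A and MS4A1 averaged only 2.93 and 2.49 CPM on grain and 0.962 and 0.944 CPM on forage. Of those not called, PTPRC (19.5 CPM on grain and 21.7 CPM on forage), CSF1R, CD68 and CD3D averaged lower on grain, and CD3E, CD79A and CD79B higher. The 4 brown fat markers summed to 12.4 to 24.7 CPM on grain and 12.7 to 19.1 CPM on forage, with UCP1 and PPARGC1A called higher. UCP1 averaged only 1.79 CPM on grain and 0.555 CPM on forage. CIDEA, of the same list, went the other way, at 4.18 CPM on grain and 6.67 CPM on forage, and was not called. Of the 7 smooth muscle markers, which summed to 136 to 489 CPM on grain and 198 to 618 CPM on forage, SMTN was called lower and no other was called. None of the 6 fibroblast markers (444 to 1920 CPM on grain and 185 to 2300 CPM on forage) or of the 5 endothelium markers (122 to 254 CPM on grain and 110 to 276 CPM on forage) was called. Their part in the member results was not tested, and in bulk papillae fewer cells of a type and less RNA per cell cannot be told apart. The ratio of member reads to epithelial marker reads within a library was 0.674 ± 0.13 on grain and 0.744 ± 0.10 on forage (SD, n = 9 each).

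Member transcripts moved together between libraries. Within groups, the median correlation of a member's log2 CPM with the mean of the other members was 0.93 over the 18 libraries, which share the scaling factor of each library, and 72 members reached 0.8. The 6 under 0.5 were COX6A2 (−0.73), COX4I2 (−0.66), COX7B2 (−0.62), NDUFA4L2 (−0.55), COX6B2 (−0.10) and COX7A1 (0.20), all weakly expressed. The lowest value of the 18 libraries was in grain_PHY 1 for 54 members, and the highest in forage_control 5 for 66.

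Within PHY cows members were mostly lower on grain by estimate, but edgeR called 0% of the 22202 tested genes in this arm. The median over members was −0.85, against 0.21 for all tested genes and −0.60 for genes at or above the members' lower quartile of level when members are left out. At an unadjusted p under 0.05, 71 members were lower and 2 higher, the same held for 17.4% and 22.3% of all tested genes and for 55.8% and 0.782% of the genes in that range of level, and the smallest adjusted p was 0.070. DESeq2 called 42 members lower and 2 higher, and of all genes 6.2% lower and 17.5% higher. With limma voom and quality weights it was 74 and 2 members, and 15.4% and 20.2% of all genes. With edgeR fitted on the PHY groups alone it was 43 and 0 members, and 6.18% and 17.9% of all genes. Without forage_control 5 edgeR called 19 members lower, as it did 2.17% of all genes, and without grain_control 1 it called 21 members and 3.1% of all genes lower. In 66 of the 84 members every grain_PHY library was below every forage_PHY library, and in 1, COX7B2, every grain_PHY library was above. Of all tested genes 15.6% lay below and 14.2% above in this way, and of those in the members' range of level 54.4% and 0.404%. Of the positive estimates COX7B2 was at 2.6 ± 1.09, COX6A2 at 2.49 ± 1.40 and COX4I2 at 2.26 ± 0.82. The largest negative estimates were those of ATP5F1E (−1.43 ± 0.43), NDUFA3 (−1.37 ± 0.33), COX8B (−1.36 ± 0.38) and ATP5MG (−1.35 ± 0.43).

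Within control cows most estimates were negative too, and none was called. The edgeR test called 0% of all tested genes and 0 members, with 13 members lower at an unadjusted p under 0.05 and a smallest adjusted p of 0.43. Those 13 were 15.5% of the members, beside 4.92% of all tested genes and 15.4% of the genes in the members' range of level. No member was higher at that p, beside 6.42% of all tested genes and 0.757% of those in the range. DESeq2 and limma voom called 0 members as well. The median over members was −0.46, against 0.14 for all tested genes, and 80 of the 84 estimates were negative. COX8B was at −0.94 ± 0.34, CHCHD10 at −0.92 ± 0.36 and ATP5F1D at −0.82 ± 0.31. No member had grain_control libraries all below or all above the forage_control libraries, whereas 0.842% of all tested genes, and 2.85% of those in the members' range of level, lay below in this way, and 0.491% and 0% above.

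The 2 arms were not shown to differ in their diet response. The difference of the responses, PHY minus control, had a median of −0.39 over members and was negative in 80, and edgeR called 0% of all tested genes and 0 members, with 0 members at an unadjusted p under 0.05 and a smallest adjusted p of 0.95. DESeq2 and limma voom called 0 members too. The member of smallest p was NDUFB11, at −0.61 ± 0.37 with a 95% interval from −1.36 to 0.15, and among positive estimates COX6A2, at 2.62 ± 1.80 with an interval from −1.09 to 6.32. For CHCHD10 the difference was −0.32 ± 0.53 and for COX8B −0.42 ± 0.51.

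**Figure D5:**
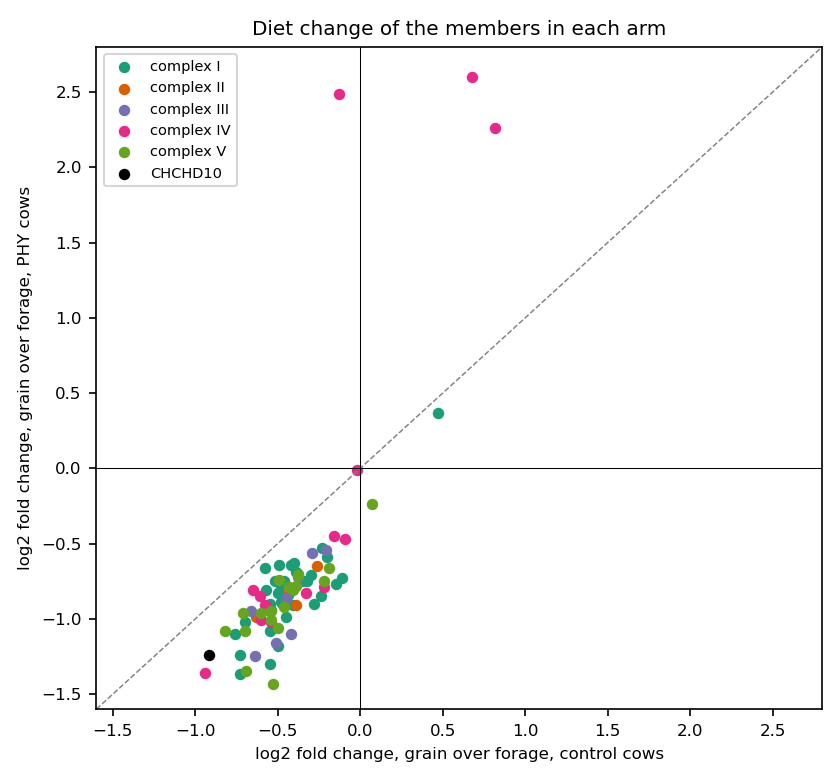
Log2 fold change of grain over forage for each member in PHY cows (vertical axis) and in control cows (horizontal axis), coloured by complex, with the dashed line marking equal change. Most members lie in the lower left below the line, with a median of −0.85 in PHY cows and −0.46 in control cows, and the difference was called for none of the 84.

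PHY against control within a diet gave no calls. On grain the median over members was −0.21 (0.04 with limma voom) and 75 of 84 estimates were negative, and on forage it was 0.18 and 73 were positive. edgeR called 0% of the tested genes in either comparison, with 0 members at an unadjusted p under 0.05 in both, and a smallest adjusted p of 1, and DESeq2 and limma voom called 0 members too. On grain the member of smallest p was COX8B, at −0.73 ± 0.36 with an interval from −1.48 to 0.02, and among positive estimates COX7B2, at 1.12 ± 0.97. On forage UQCR11, a small complex III subunit, was at 0.42 ± 0.27 with an interval from −0.14 to 0.99, and COX4I2 at −1.22 ± 0.77. Summed over members the levels were 3984 ± 1240 CPM in grain_PHY and 4639 ± 1770 CPM in grain_control, and 7439 ± 877 CPM in forage_PHY and 6612 ± 2270 CPM in forage_control (SD, n = 4 for PHY and n = 5 for control).

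Genes that work with these complexes were lower on grain in part. Beside the counts below, 13.8% of all tested genes were called lower, with a median of 0.20. Of genes in the members' range of level 47.4% were called lower, with a median of −0.47 when members are left out. With the olfactory receptor covariate, or without grain_PHY 1, 0% of all tested genes were called lower. Of the 17 citric acid cycle genes 14 fell, with a median of −0.61, among them IDH3A (−0.77 ± 0.23), a subunit of isocitrate dehydrogenase, and SUCLG1 (−0.72 ± 0.23), of succinate-CoA ligase. A list of 10 genes held cytochrome c, the complex III subunit CYC1, carriers of the inner membrane and the VDAC channels of the outer membrane. Of these 7 fell, with a median of −0.65, such as the ADP/ATP carrier SLC25A6 (−0.87 ± 0.26) and cytochrome c itself, CYCS (−0.85 ± 0.25). Of 76 mitochondrial ribosome genes 48 fell and of 46 assembly factors of the complexes 12 fell, with medians of −0.55 and −0.40. COX14 (−1.0 ± 0.20), which assists the making of cytochrome c oxidase, fell most among the assembly factors.

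The 13 mitochondrially encoded protein genes, which make the other subunits of the same complexes, had a median of −0.55 and none was called by edgeR. COX1, the catalytic subunit of complex IV, was at −0.62 ± 0.29 (adjusted p = 0.083), CYTB of complex III at −0.61 ± 0.27 (adjusted p = 0.076) and ND6 of complex I at 0.20 ± 0.19 (adjusted p = 0.38). Reads on the 84 nuclear members were 0.100 ± 0.029 of the reads on the mitochondrially encoded genes on grain and 0.103 ± 0.035 on forage (SD, n = 9 each). The arms went opposite ways in this ratio. In PHY cows it was 0.0889 ± 0.035 on grain and 0.116 ± 0.029 on forage (SD, n = 4 each). In control cows it was 0.109 ± 0.023 on grain and 0.093 ± 0.039 on forage (SD, n = 5 each), and these differences were not tested. Among 13 regulators of mitochondrial gene expression 4 fell and 1 rose, beside 13.8% and 18.1% of all tested genes. With the olfactory receptor covariate 0% of all tested genes were called higher, and without grain_PHY 1 it was 0.00445%. The coactivator PPARGC1B fell by 0.79 ± 0.22 (adjusted p = 0.022, edgeR), as did the transcription factor YY1 by 0.74 ± 0.19, and the related coactivator PPARGC1A rose by 1.44 ± 0.43 (adjusted p = 0.025), at 6.12 CPM on grain and 2.52 CPM on forage.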

How the data were processed

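Papilla RNA from 18 libraries was sequenced by the authors with a stranded total RNA kit, per the labels' protocols. The deposited table used here holds whole-number read counts per gene. A deposited table of DESeq2-normalized signal was found to equal those counts divided by a size factor per library, within a tolerance of 0.001, and was not tested. Reads were demultiplexed with bcl2fastq 2.20 and normalized with DESeq2, and the genome build was bosTau9, as the submitters' processing notes list them. Which aligner, annotation release, counter and strandedness applied is not given in the sources used here, so subunit genes with near-identical pseudogenes or overlapping neighbours may share reads. The 7506 genes whose name is only an identifier could not be matched by symbol.

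Groups follow the labels, and replicate numbers only name libraries. Replicates differed beyond counting noise (chi-square per degree of freedom 15.2 to 229). Where nothing ties a library to a cow, p-values treat libraries of 1 cow as independent.

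Counts were tested with edgeR 4.0.16 (R 4.3.3): filterByExpr by group (minimum count 10, minimum total 15), TMM, robust quasi-likelihood F test on 22202 genes, 1 mean per group, and adjusted p under 0.05. The biological coefficient of variation was 51.4%. The standard error was taken as the log2 fold change over the square root of F. Read ratios of 9 isoform pairs (0.5 added to each count) were compared by exact two-sided permutation of libraries. The tests were checked on simulated counts. Named members were, per complex, those of highest level and of largest change in each direction, all of complex II, all isoform pairs and CHCHD10, 47 in all (of which 1 is not reported here), and for the PHY comparisons the member of smallest p in each direction. Members, lists and comparisons were chosen with earlier results of these data known. Alternatives were DESeq2 1.42.0, its size factors in edgeR, limma 3.58.1 voom with quality weights, no filter, thinning to the lowest total, the compared groups alone, an olfactory receptor covariate, leaving out the 3 libraries of fewest reads, leaving out each library, a pseudocount of 1 CPM for ratios and, added after seeing the data, scaling to total reads. No sequences are printed, because the reference tables used here hold none.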

Additional observations from a re-analysis of the deposited data

Results flagged for a closer look

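Among 208 groups of 4 or 5 libraries, taken over the 47 members chosen for description and the summed levels of 5 complexes, 8 held a library far from the rest, and chance alone flags about 1 in 20 groups. In grain_PHY 1, the library of fewest reads, UQCRB was low at 34.4 CPM (others 59.6 to 63.7) and COX7B was low at 18.6 CPM (others 48.2 to 51.4). In forage_PHY 4, SDHD was low at 32.5 CPM (others 45.1 to 46.2) and ATP5IF1 was low at 327 CPM (others 429 to 445). In grain_control 5, NDUFB11 was high at 16.6 CPM (others 8.58 to 10.9). COX7A1 was high in grain_PHY 4 at 1.57 CPM (others 0.928 to 1.02). COX6B2 was low in grain_PHY 2 at 0.0928 CPM (others 0.885 to 0.975) and high in grain_control 1 at 1.57 CPM (others 0.172 to 0.513).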

How the results depend on the processing

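No paired analysis was possible because no label links a library to its cow. For grain against forage over both arms, the count of members called lower (63) was 54 with DESeq2's size factors, 61 without a filter, 60 with DESeq2, 76 with limma voom and 46 of 79 tested after thinning. The same settings called 10.4%, 10.5%, 13.8%, 19.7% and 8.74% of all tested genes lower, in that order, against 13.8% in the reported fit. The member count was 0 without the 3 libraries of fewest reads (47 lower at a p under 0.05 without adjustment, smallest edgeR adjusted p 0.18). With the olfactory receptor covariate it was 0 (0 unadjusted lower). Scaled to total reads without TMM, an alternative chosen after seeing the data, it was 5. Neither without those 3 libraries nor with the covariate was any tested gene called (0%). Total-read scaling called 0.36% of all tested genes lower. Total-read scaling put the median of all genes at 0.75 and of members at −0.25. Members thus lay 1.0 under all genes, against 0.85 in the reported fit. The median of members minus that of all genes was −0.5 without the 3 libraries, −0.52 after thinning and −0.03 with the covariate. In the reported fit, members at or above their lower quartile of level had a median of −0.68, against −0.47 for other genes in that range. Leaving out 1 library gave 0 to 75 members called lower: 0 without grain_PHY 1, 21 without forage_PHY 1, 34 without forage_PHY 2, 37 without forage_control 5, and 38 without grain_control 1 or grain_control 4. Over these runs the share of all tested genes called lower went from 0% without grain_PHY 1 to 19.3% without grain_control 5. The count of members called higher (1) was 2 with DESeq2, with limma voom and with total-read scaling, and 0 to 2 with 1 library left out. It was 0 after thinning, without the 3 libraries and with the covariate. The share of all tested genes called higher was 28.1% with DESeq2, 25.9% with limma voom and 36.4% with total-read scaling. COX4I2 was called in 8 of the 18 runs with 1 library left out. Of the described members called lower, SDHC was called in 4 of these runs, NDUFS1 in 5 and ATP5F1B in 6. UQCRFS1 and ATP5MC3 were called in 7, and SDHD, NDUFB11 and ATP5IF1 in 8. The other described members called lower were called in 13 to 17. In PHY cows DESeq2 called 42 lower and 2 higher, limma voom 74 and 2, the PHY groups alone 43, and single omissions 0 to 21. The cause of these differences was not tested.

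Signs turned in 40 of the 84 members with the covariate and in 11 with total-read scaling, of which 18 and 10 are among the 47 chosen for description. With the covariate the 18 were NDUFS1 (0.06), NDUFB9 (0.10), NDUFA4 (0.17), NDUFA4L2 (−0.96), SDHD (0.08), UQCRB (0.06), UQCRFS1 (0.02), UQCRC2 (0.14), UQCRH (0.08), COX7A2 (0.20), COX6B1 (0.16), COX6A2 (−1.16), ATP5IF1 (0.02), ATP5MC3 (0.03), ATP5F1B (0.00), ATP5MF (0.16), ATP5PB (0.12) and ATP5ME (0.48). With total-read scaling the 10 were NDUFC2 (0.03), NDUFB9 (0.08), NDUFA4 (0.09), SDHC (0.02), UQCRH (0.10), COX7A1 (0.14), COX6B1 (0.18), COX6B2 (0.57), ATP5PB (0.03) and ATP5ME (0.34). Without the 3 libraries NDUFA4L2 was at −0.23 and ATP5ME at 0.17, and after thinning ATP5ME was at 0.09. COX6B2 was at 0.10 with DESeq2's size factors, 0.09 with DESeq2, 0.06 with limma voom and −0.34 to 0.16 with 1 library left out, and ATP5ME at −0.18 to 0.05. Without the 3 libraries the ratio of COX4I2 to COX4I1 differed by 1.47 and of COX7B2 to COX7B by 2.11, neither called, and COX6B2 to COX6B1 by −0.09, NDUFA4L2 to NDUFA4 by −0.10 and ATP5MC1 to ATP5MC3 by −0.02. With 1 library left out the last was −0.01 to 0.06. Reads of COX4I2, COX7B2, COX6A2 and COX6B2 are too few for a precise level.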
